A study of Mus musculus with 9 samples.

Results

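The cells described here were the brainstem cells of normally sleeping (NS) mice that the study's own cell list names Endothelial. The list pairs each barcode with a cell class, and all 1999 of its brainstem NS barcodes were found in a single library of 3731 cells, so they were taken as cells of that library. The endothelial class was formed by 479 cells with UMIs of at least 3 of the 4 marker genes Flt1, Cldn5, Slco1a4 and Ly6c1 and 94 cells with UMIs of fewer; the markers played no part in the choice made here. Together they made up 28.7% of the listed cells (95% exact binomial interval 26.7% to 30.7%) and 1.94% of the 29571 cells in the table of 9 libraries. The list was held here in part, and 1732 cells of the library carried no class, so these shares describe the listed cells and not the tissue. The classes were made from the same expression values, which means that every difference between classes given here is a description and was not tested.

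The study sequenced single cells of brainstem, cortex and hypothalamus from male C57BL/6 J mice of 9 to 11 weeks, in 3 sleep states with 1 library for each region and state. The NS mice slept freely, the sleep deprived (SD) mice were kept awake for 12 h, and the recovery sleep (RS) mice slept again afterwards, for a time given as 24 h in one label and 12 h in another. All brains were taken at ZT12, when the lights went off, and tissue of 3 mice was pooled for each library, so no spread between animals could be measured. The tissue was dissociated with papain and myelin was removed with beads, which leaves only cells that survive these steps. The labels name no transgene or mutation in any group.

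The endothelial cells held 648504 UMIs, the unique molecular identifiers by which each captured transcript is counted once, with a median of 910 UMIs per cell (range 495 to 5116) and 567 genes per cell. The 1426 other listed cells had a median of 902 UMIs, pericytes 726.5, arterial vascular smooth muscle cells (VSMCA) 1319.5, microglia 796 and astrocytes 771. Mitochondrial transcripts took 6.62% of endothelial UMIs, hemoglobin 0.851% and Malat1 7.83%. Levels below are UMIs scaled to a class total of 1e6 (CPM), with 95% Poisson intervals that cover counting error only, and a gene with no endothelial UMI could be present at up to 4.63 CPM, the level of 3 counts. The reads came from the 3' end of transcripts, so levels were not divided by gene length.

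Brain endothelial cells line the vessels and form the blood-brain barrier. They are joined by tight junctions, take up little by vesicles, and pass nutrients, hormones and ions through dedicated carriers while efflux pumps return many foreign compounds to the blood. Wnt signals from neural tissue, read through beta-catenin, induce and keep these traits, whereas endothelial cells of fenestrated vessels lack them and carry the diaphragm protein Plvap. Arterial, capillary and venous endothelial cells differ along the vessel tree in a graded way.

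The class name was checked against 4 genes that mark these cells. Flt1, a VEGF receptor, was at 1480 CPM (1388 to 1577) in the endothelial cells and at 55.6 CPM in the other listed cells. Cldn5, the main claudin of the tight junction, was at 1605 CPM (1509 to 1706) against 38.7 CPM. Slco1a4, an organic anion carrier, was at 2999 CPM (2867 to 3136) against 76.8 CPM, and Ly6c1, a surface protein anchored by a lipid, at 4578 CPM (4415 to 4746) against 211 CPM. All 4 genes were thus far above their level in every other class of at least 50 cells in this library, where the highest value was 343 CPM for Ly6c1 in glutamatergic neurons.

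At the level of single cells, 262 cells held a UMI of all 4 genes, 217 of 3, 77 of 2, 15 of 1 and 2 cells of none. The pair without a marker UMI had a median of 560.5 UMIs, near the lower end of the class. At least 3 of the 4 markers were thus seen in 479 cells (83.6%), in 0 of 168 pericytes, 0 of 230 VSMCA and 3 of 549 microglia. The 19 cells that the list names hemoglobin-expressing vascular cells (HbVC) stood apart from the other classes in this respect, with 9 positive cells, and 69.0% of their UMIs were hemoglobin. After each cell was thinned to 500 UMIs, which left out 3 endothelial cells, Ly6c1 was seen in 85.4% of endothelial cells and 9.23% of microglia (94.2% and 14.6% before thinning), a background that free RNA in the suspension can give.

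**Figure D1:**
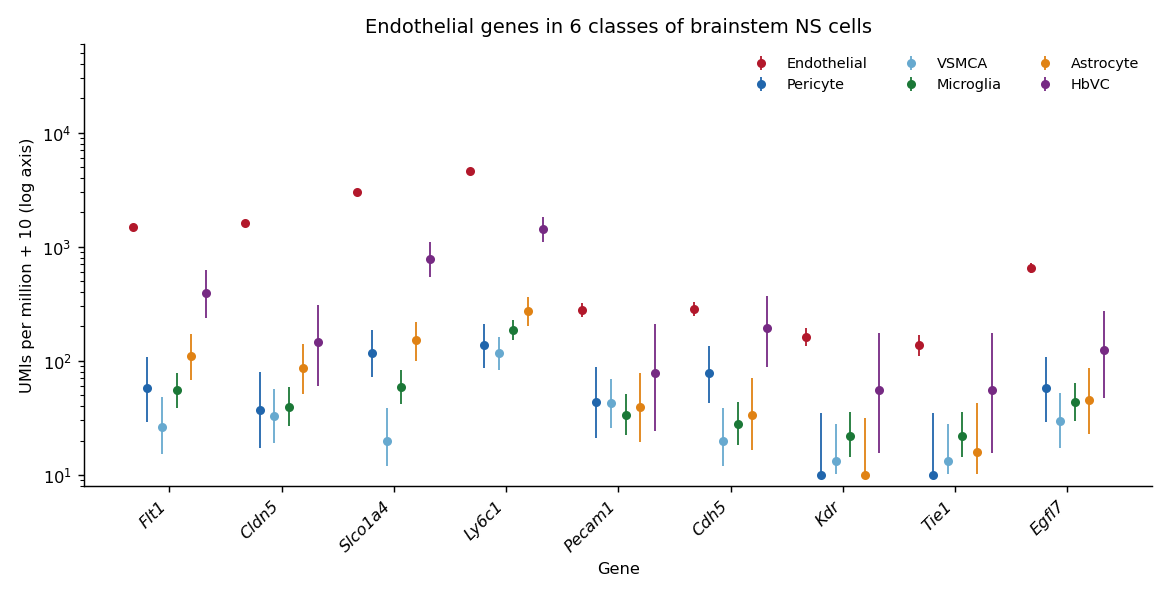
Levels of the 4 class markers and of 5 further endothelial genes in 6 classes of the brainstem NS library, drawn as CPM + 10 on a log axis with 95% Poisson intervals as bars. Each class marker lies highest in the endothelial cells, between 1480 CPM for Flt1 and 4578 CPM for Ly6c1, and the HbVC cells come next.

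The 200 bases before the start of each of these 4 genes are shown because the genes mark these cells, with the RefSeq sequence of GRCm38.p6 read 5′ to 3′ on the strand of the gene. They are chr5:147726012-147726211 (minus strand) for Flt1, chr16:18776647-18776846 (plus) for Cldn5, chr6:141856221-141856420 (minus) for Slco1a4 and chr15:75048838-75049037 (minus) for Ly6c1. Each window lies upstream of the annotated start, outside the gene, whose span in the GENCODE annotation of GRCm38 is chr5:147561604-147726011 for Flt1, chr16:18776847-18778262 for Cldn5 (a single exon), chr6:141805440-141856199 for Slco1a4 and chr15:75044018-75048830 for Ly6c1. Capitals mark the core of the ETS factors, GGAAG or its reverse complement CTTCC, and the TATA box letters TATAAA.
Flt1: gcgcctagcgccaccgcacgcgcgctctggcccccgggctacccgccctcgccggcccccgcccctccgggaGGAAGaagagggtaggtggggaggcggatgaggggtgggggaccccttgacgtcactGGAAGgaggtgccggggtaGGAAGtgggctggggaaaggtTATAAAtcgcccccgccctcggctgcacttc
Cldn5: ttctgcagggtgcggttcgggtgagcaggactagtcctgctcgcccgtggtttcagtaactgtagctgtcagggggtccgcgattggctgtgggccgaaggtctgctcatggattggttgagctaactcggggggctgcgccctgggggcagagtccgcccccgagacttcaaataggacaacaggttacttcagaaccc
Slco1a4: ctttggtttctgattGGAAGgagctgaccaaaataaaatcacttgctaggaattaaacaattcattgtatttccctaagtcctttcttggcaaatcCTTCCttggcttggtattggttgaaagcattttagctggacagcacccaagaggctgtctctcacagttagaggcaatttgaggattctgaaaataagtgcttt
Ly6c1: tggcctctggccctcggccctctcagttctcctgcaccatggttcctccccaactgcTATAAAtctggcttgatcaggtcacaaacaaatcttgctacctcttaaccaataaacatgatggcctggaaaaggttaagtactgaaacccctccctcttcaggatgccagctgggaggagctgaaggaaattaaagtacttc

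The 4 promoters did not share these letters. Flt1 held GGAAG at 128, 71 and 52 bases before its start and TATAAA at 31 bases. Slco1a4 held GGAAG at 185 bases and its reverse complement at 104, Ly6c1 held TATAAA at 143 bases, and Cldn5 held neither within this window. They also differed in composition, with 70.4% G and C over 250 bases in Flt1, 59.6% in Cldn5, 48.4% in Ly6c1 and 39.2% in Slco1a4. Of the 25 leading genes named below, 19 matched the promoter table. Among these, GGAAG on either strand was found within 250 bases in 68.4%, against 63.7% of 27025 promoters. The longer ETS form CCGGAAG was found in 0 of 19 against 7.07%. TCF and LEF letters (CTTTGAT) were found in 5.26% against 3.26%, SOX letters (ACAATGG) in 0 of 19 against 3.04%, and GC boxes (GGGCGG) in 52.6% against 33.0%. Such matches describe letters in a window and say nothing of binding.

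All genes of at least 100 CPM were ranked by the ratio of the endothelial level to that of the next highest of the large classes, 10 CPM being added to both. Among the 25 leading genes were all 4 markers. Slco1a4 led with a ratio of 18.5, followed by Abcg2, an efflux pump, at 16.2 (1354 CPM against 74.4 CPM in pericytes). Adgrl4, an adhesion receptor of endothelium, had a ratio of 15.1 at 430 CPM, Sema3c, a secreted guidance protein, 14.4 at 685 CPM, and Sox17, a transcription factor of arterial development, 13.8 at 461 CPM. Each of these was thus at a level more than 10 times that of the nearest class. Pglyrp1, which binds bacterial cell wall, was at 1684 CPM and Itm2a, a membrane protein, at 6398 CPM with 669 CPM in pericytes. Bsg, the partner protein of the lactate carriers, was at 10209.7 CPM (9965 to 10459), against 1026 CPM in the other listed cells, and was seen in 99.3% of the endothelial cells.

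Of 2924 genes with a mean of at least 50 CPM over the endothelial and the other listed cells, 531 were at least 2-fold higher in the endothelial cells (18.2%) and 342 at least 2-fold lower (11.7%), with a median log2 ratio of 0.28. The same rule gave 530 higher (17.5%) and 389 lower (12.9%) of 3024 genes against pericytes, and 656 higher (23.8%) and 289 lower (10.5%) of 2756 genes against VSMCA, with medians of 0.10 and 0.30. These shares are the background against which the gene groups are given.

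The carriers of nutrients stood far above the rest of the library. Together the 22 genes were at 7459 CPM (7250 to 7672) in the endothelial cells and 883 CPM in the other listed cells, and all 15 with enough UMIs to compare were higher, with a median log2 ratio of 3.21. Slc2a1, the glucose carrier of the barrier, was at 1619 CPM (1523 to 1720) in the endothelial cells, 241 CPM in astrocytes and 81.1 CPM in pericytes. Slc6a6, which carries taurine, was at 1070 CPM, and Slc7a1, which carries cationic amino acids, at 663 CPM. Both chains of the carrier for large neutral amino acids were at like levels, with Slc3a2 at 614 CPM and Slc7a5 at 594 CPM, but outside endothelium Slc3a2 was at 201 CPM and Slc7a5 at 44.98 CPM. Slc3a2, which pairs with several carriers, was therefore the less restricted of this pair.

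Carriers of monocarboxylates, metals and lipids were lower. Slc16a4, of the monocarboxylate carrier family, was at 193 CPM against 6.25 CPM in the other listed cells. Slc40a1, the iron exporter, was at 328 CPM against 49.98 CPM. The lactate carrier Slc16a1 was at 103 CPM (80.1 to 131) in endothelial cells and 100 CPM in astrocytes, so it did not separate these classes. Mfsd2a, the lipid carrier that restrains transcytosis, was at 119 CPM (93.7 to 148) in endothelial cells, below its 247 CPM in astrocytes. Slc38a5, a carrier of glutamine, was at 191 CPM and was absent from the UMIs of pericytes, VSMCA and astrocytes, where 3 counts correspond to 20.3, 9.74 and 17.6 CPM.

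**Figure D2:**
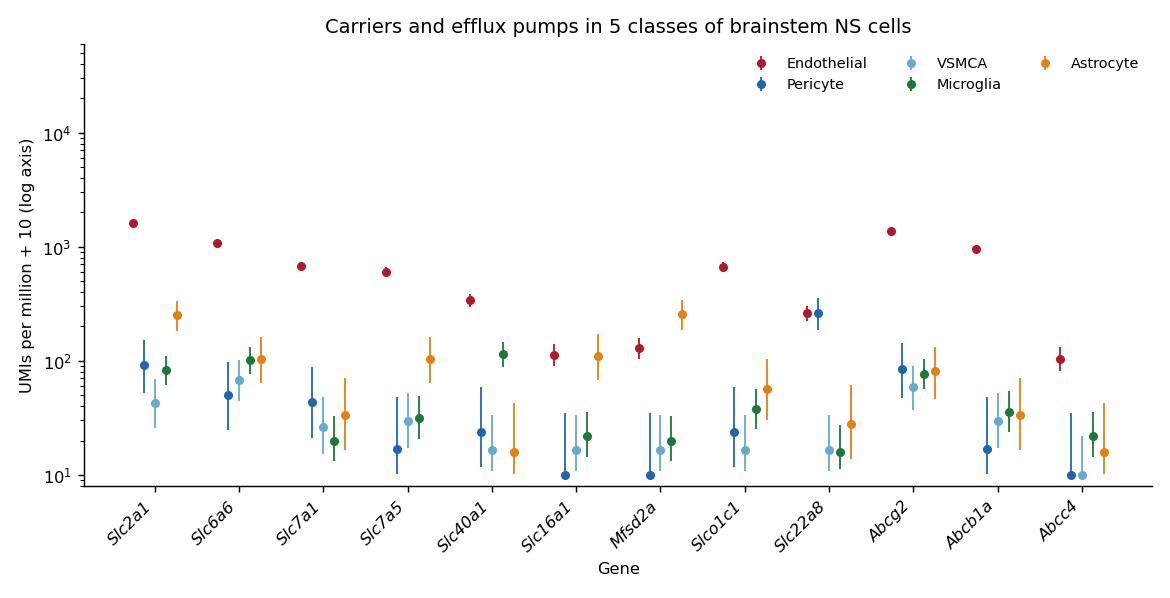
Levels of 12 carriers and efflux pumps in 5 classes of the brainstem NS library, drawn as CPM + 10 on a log axis with 95% Poisson intervals as bars. Slc2a1, Slc6a6 and Abcg2 lie above 1000 CPM in endothelial cells only, Slc22a8 is level with pericytes, and Mfsd2a is higher in astrocytes (247 CPM) than in endothelial cells (119 CPM).

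The organic anion carriers and the efflux pumps were dominated by a few members. The anion carriers summed to 4025 CPM (3872 to 4182) against 261 CPM in the other listed cells, of which Slco1a4 made up most, and Slco1c1, the carrier of thyroxine, was at 657 CPM. Slc22a8, an anion carrier of the abluminal side, was at 251 CPM in endothelial cells and 250 CPM in pericytes, while Slco2b1, at 92.5 CPM, was below its 197 CPM in microglia. The pumps summed to 2444 CPM (2325 to 2567) against 221 CPM. Abcg2 was at 1354 CPM and Abcb1a, the P-glycoprotein of the mouse barrier, at 953 CPM (879 to 1031), whereas Abcc4 was at 94.1 CPM, Abcb1b had 1 UMI and Abcc3 had none. Abcb1a shares 18.5% of the 50-base words of its transcript ends with Abcb1b, so the split between these copies is uncertain.

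**Figure D3:**
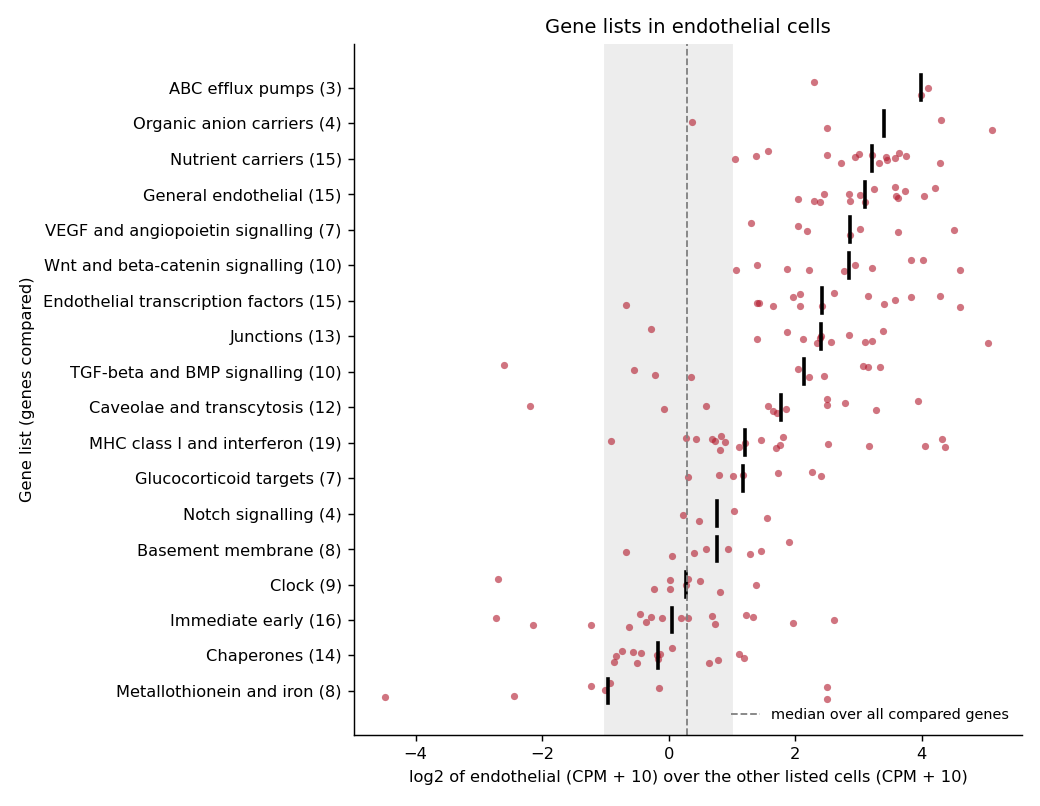
Each point is a compared gene, placed by the log2 ratio of its endothelial level to that in the other listed cells (10 CPM added to both), in rows by gene group with the number of genes in parentheses. Black bars are group medians, the dashed line is the median of all compared genes (0.28), and the grey band holds ratios below 2-fold; the medians run from 3.98 for efflux pumps to -0.96 for metallothionein and iron genes.

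Junction genes were at 4901 CPM (4732 to 5074) against 717 CPM, and 12 of 13 compared genes were higher than in the other listed cells, with a median log2 ratio of 2.42. Tjp1, the scaffold of the tight junction, was at 450 CPM, Ocln, occludin, at 299 CPM, and Cdh5, the cadherin of endothelium, at 276 CPM (237 to 320). Pecam1, an adhesion protein of endothelial contacts, was at 268 CPM and Lsr, a protein of tricellular contacts, at 239 CPM. The exception was F11r, a junctional adhesion molecule, at 123 CPM in endothelial cells and 428 CPM in microglia. Among 18 claudin genes in the table, Cldn5 accounted for 1041 UMIs and 12 genes had none, including Cldn1 and Cldn3, which leaves each of those at 4.63 CPM or less.

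Genes of vesicles and receptor uptake were mixed. They summed to 4185 CPM (4029 to 4345) against 1064 CPM, and 9 of 12 compared genes were higher and 1 lower than in the other listed cells. Igf1r, a growth factor receptor, was at 839 CPM against 77.5 CPM, Cav2 at 611 CPM and Cav1, the coat protein of caveolae, at 273 CPM. Tfrc, the transferrin receptor, was at 174 CPM against 22.5 CPM, and Insr, the insulin receptor, at 102 CPM. Of the other caveolar coat genes, Sdpr was at 685 CPM against 34.99 CPM in the other listed cells, while 2 were higher in smooth muscle, with Ptrf at 253 CPM against 578 CPM in VSMCA and Prkcdbp at 162 CPM against 555 CPM. Lrp1, a clearance receptor, was the lower gene at 20.05 CPM (10.7 to 34.3) against 127 CPM. Plvap had 1 UMI among 648504, and the 7 genes of fenestrated endothelium summed to 50.9 CPM against 52.5 CPM in the other listed cells.

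The receptors of vessel growth factors were higher and their ligands were near the limit of detection. All 7 compared genes of the VEGF and angiopoietin group were higher than in the other listed cells, with a median log2 ratio of 2.86. After Flt1, the receptor Tek was at 298 CPM (257 to 343), Nrp1 at 193 CPM, Kdr, the main signalling receptor of VEGF, at 153 CPM (124 to 186) and Tie1 at 126 CPM. Pdgfb, the signal by which endothelium recruits pericytes, was at 109 CPM. The ligands Vegfa and Angpt1, which other cells release, had no UMI, as did Esm1 and Apln, which mark growing vessel tips, and Angpt2 had 3 UMIs.

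Wnt and beta-catenin genes were also higher, in 10 of 10 compared genes against the other listed cells (median log2 ratio 2.86) and in 9 of 11 against pericytes. Foxq1, a transcription factor of brain endothelium, was at 265 CPM against 9.37 CPM and Lef1, which carries the beta-catenin signal to DNA, at 245 CPM against 5.62 CPM. The receptor Fzd4 was at 126 CPM against 10.00 CPM. The group had members that smooth muscle also held, since the coreceptor Tspan12 was at 163 CPM in endothelial cells and 221 CPM in VSMCA, and Nkd1, an inhibitor induced by the pathway, at 193 CPM and 393 CPM. Axin2, another target, was at 64.8 CPM and too low on average to compare.

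Notch genes were lower than in the mural cells as a group, and 2 of 4 compared genes were higher than in the other listed cells. The group was at 796 CPM in endothelial cells, 1183 CPM in pericytes and 1045 CPM in VSMCA, with 0 of 4 compared genes higher than in pericytes and 2 lower, and 1 of 5 higher than in VSMCA and 3 lower. Hes1, a target of the pathway, was at 296 CPM (256 to 341) against 622 CPM in pericytes, and the ligand Jag1 at 126 CPM against 373 CPM in VSMCA. In the TGF-beta and BMP group, at 3103 CPM against 1031 CPM in the other listed cells, 6 of 10 genes were higher and 1 lower. The targets Id3 and Id1 were at 805 and 641 CPM, and the BMP receptors Bmpr2 and Acvrl1 at 348 and 288 CPM. Tgfbr1, the receptor of TGF-beta, was the lower gene at 40.1 CPM, with 828 CPM in microglia.

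Among transcription factors of endothelium, 14 of 15 compared genes were higher than in the other listed cells. Klf2, which is induced by blood flow, was at 1491 CPM (1399 to 1588) against 376 CPM, Epas1, which responds to low oxygen, at 907 CPM against 161 CPM, and Mecom at 404 CPM against 11.2 CPM. Sox18 was at 185 CPM against 6.25 CPM and Klf4 at 221 CPM against 27.5 CPM. Nr2f2, which specifies veins, went the other way in the vessel wall, at 81.7 CPM in endothelial cells and 554 CPM in pericytes.

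Antigen presentation and interferon genes had the highest sum of the endothelial and state groups, at 17203 CPM (16885 to 17525) against 4979 CPM, with 11 of 19 compared genes higher and none lower than in the other listed cells. The sum includes the class marker Ly6c1 at 4578 CPM. Ly6a was at 2965 CPM against 139 CPM and Ly6e at 1283 CPM against 358 CPM. The interferon-induced genes Ifitm3, Isg15 and Ifit1 were at 1784, 247 and 216 CPM, although Ifitm3 was at 1758 CPM in pericytes too. H2-D1, a class I heavy chain, was at 1206 CPM and B2m, its light chain, at 2131 CPM, below the 4183 CPM of B2m in microglia. Ly6c1 and Ly6c2 share 22.7% of the words of the Ly6c1 transcript ends, so the 282 CPM of Ly6c2 is uncertain. For leukocyte adhesion, Icam2 was at 197 CPM against 9.37 CPM and Podxl at 248 CPM against 18.1 CPM, while Vcam1 was at 146 CPM in endothelial cells, 216 CPM in pericytes and 135 CPM in astrocytes. The endothelial level rested on few deep cells, since the CPM of Vcam1 taken as a mean over cells was 82.8. The table has no row named Sele or Selp.

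Genes acting on vessel tone and clotting were low as single genes. Vasoactive and clotting genes counted 5 higher and 2 lower of 8 compared. Edn1, which makes the constrictor endothelin, was at 170 CPM (139 to 204) against 13.7 CPM, Thbd, the thrombin receptor that starts anticoagulation, at 128 CPM, Vwf, which tethers platelets, at 122 CPM against 3.12 CPM, and Nos3, which makes nitric oxide, at 63.2 CPM. The lower genes were in the prostaglandin pathway, with Ptgs1 at 6.17 CPM against 337 CPM in microglia and Ptgds at 162 CPM against 6206 CPM in pericytes. Basement membrane genes were close between the cells, at 4171 CPM against 3363 CPM with 3 of 8 higher, and Sparc, a matrix protein, was at 938 CPM against 903 CPM.

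Among groups that read out the state of the cells, the clock and immediate early groups differed little in sum between the endothelial and the other listed cells. Of 9 compared clock genes, Ciart was higher (94.1 against 30.0 CPM) and Bhlhe41 lower (29.3 against 245 CPM), while Per3 was at 185 CPM against 183 CPM and Dbp at 244 CPM against 289 CPM. Arntl and Npas2 had no UMI at ZT12 in these cells. In the immediate early group 4 of 16 genes were higher and 3 lower, with a median log2 ratio of 0.04. The higher ones were Klf2, Klf4, Klf6 and Ier3, and the lower ones were Fos at 40.1 CPM (26.2 to 58.7) against 323 CPM, Junb at 126 CPM against 591 CPM and Zfp36 at 37.0 CPM against 101 CPM. Glucocorticoid targets were higher in 5 of 7 genes, among them Nfkbia, the inhibitor of NF-kappa-B, at 945 CPM against 189 CPM, Tsc22d3 at 928 CPM against 452 CPM and Cdkn1a, a brake on the cell cycle, at 183 CPM against 26.2 CPM.

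Chaperones were higher in 2 of 14 genes, with a median log2 ratio of -0.18, which is below the 0.28 of all compared genes. The zinc binding Mt1 was at 1246 CPM and Mt2 at 285 CPM, far below the 7925 and 2200.3 CPM of astrocytes and above the 757 and 162 CPM of pericytes. The cycling genes had almost no UMIs, with 8 of 10 at none and Pcna at 44 UMIs.

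Position along the vessel tree was described by 3 marker lists, in cells thinned to 500 UMIs. A capillary marker was seen in 88.4% of 570 cells (85.5% to 90.9%), against 57.9% of pericytes, 29.7% of astrocytes, 11.8% of microglia and 8.26% of VSMCA. A venous marker was seen in 24.2% (20.7% to 27.9%), against 39.6% of pericytes, 22.9% of microglia, 17.8% of VSMCA and 10.8% of astrocytes. An arterial marker was seen in 40.0% (36.0% to 44.2%), against 73.0% of astrocytes, 57.9% of pericytes, 35.2% of VSMCA and 11.4% of microglia. The endothelial share was thus the highest of these classes for the capillary list only. Mgp, Clu and Gja4 of that list were more abundant outside endothelium, at 358, 122 and 27.8 CPM against 1040.2, 883 and 83.7 CPM in the other listed cells. With these and Sox17 left out, a choice made after the values were seen, the arterial share was 18.4% in endothelial cells, 3.05% in pericytes and 12.97% in astrocytes. Before thinning the arterial, capillary and venous shares were 58.1%, 95.5% and 39.4%.

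UMIs of several single genes of the tree were seen in few cells. A cell without a UMI may still hold the gene at a low level. Gkn3, a marker of arterial endothelium, was at 663 CPM (602 to 729) and was seen in 74 cells, 12.9% of the class, with up to 39 UMIs in a cell. It was seen in 9.12% of thinned endothelial cells and 0.923% of thinned microglia. Slc38a5, which is highest in capillary and venous cells, was seen in 94 cells, Vwf in 54 and Vcam1 in 29. Car4, a carbonic anhydrase of the capillary surface, was seen in more cells, at 1150.3 CPM in 51.8% of cells. Its level was also higher, which by itself raises such a share. Tmsb10, which is in none of the 3 lists, was at 3109 CPM in 62.7% of cells, although its reads may be split with its near copy Gm9844.

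Cells with a Gkn3 UMI differed from the rest in the sum of the arterial list, a comparison chosen after the values were seen. With Gkn3 itself left out, the arterial list was at 3829 CPM (3464 to 4221) in these 74 cells and 885 CPM (808 to 968) in the other 499, and the capillary list at 3325 against 6163 CPM. The cells with Gkn3 were deeper, with a median of 1249 against 875 UMIs. Bmx, an arterial gene, was at 257 CPM (169 to 373) in them and 22.1 CPM in the rest, and Stmn2 at 314 against 46.0 CPM. For Gja4, Gja5, Efnb2 and Vegfc, also of the arterial list, the intervals of these cells and the rest overlapped. Car4 was at 285 against 1318 CPM and Tmsb10 at 637 against 3588 CPM. The junction and nutrient carrier groups were near equal, at 0.90 and 0.87 times. Pericyte genes were 1.56 times as high in the cells with Gkn3.

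The cells with a Slc38a5 UMI had the opposite order for the arterial list. They were deeper too, with a median of 1059.5 against 881 UMIs. The venous list, without the gene itself, was at 1388 CPM (1196 to 1602) in the 94 cells and 520 CPM (459 to 586) in the rest, and the arterial list at 876 against 2328 CPM, while the capillary list was at 5306 against 5806 CPM. Cells with Vwf or Vcam1 did not follow this order for the arterial list. In cells with Slc38a5 both genes were higher, Vcam1 at 378 against 85.6 CPM and Vwf at 215 against 97.3 CPM. The 29 cells with Vcam1, with a median of 1959 against 897 UMIs, had the venous list at 1737 against 638 CPM. Their arterial list was also higher, at 3538 against 1864 CPM, with Gkn3 at 1514 against 572 CPM. The 54 cells with Vwf had a median of 1210.5 UMIs, against 894 in those without. In them the venous list was at 2172 against 541 CPM and the arterial list also higher, at 3517 against 1784 CPM. Gkn3, seen in 12 of these 54 cells, gave 160 of the 319 arterial UMIs (1764 against 484 CPM). Of other arterial genes, Mgp was higher (673 against 307 CPM) and Sox17 similar (485 against 457 CPM). Cytl1 was higher on 5 UMIs (55.1 against 1.79 CPM). For Bmx (44.1 against 62.7 CPM) and Stmn2 (44.1 against 96.8 CPM), each of 4 UMIs in the cells with Vwf, the intervals overlapped. Vcam1 was seen in 16.2% of the cells with Gkn3 (8.67% to 26.6%) and in 3.41% of those without, while Slc38a5 was seen in 6.76% and 17.8%. These shares were not thinned, and the cells with Gkn3 were deeper (medians of 1249 and 875 UMIs). In CPM, Vcam1 was at 257 against 125 and Slc38a5 at 57.0 against 217.

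Clustering of the endothelial cells on their own gave 5 sub-clusters, and their leading genes are descriptions of how they were made. Sub-cluster 1, of 157 cells (27.4%), was arterial-like, since it was led by the fixed arterial markers Gkn3 (1888 CPM against 233 CPM in the rest), Bmx and Sema3g, and held Edn1 among its first 10 genes. Its arterial list stood at 4713 CPM against 1083 CPM in the rest, and its capillary list at 4784 CPM against 6025 CPM. Gkn3, Bmx and Sema3g were seen in 31.2%, 14.6% and 15.3% of its cells. The name therefore describes the sub-cluster in sum and not each of its cells. Sub-cluster 1 also held the highest Ly6c1 (6791 CPM) and the lowest Tmsb10 (386 CPM) of the 5. The other sub-clusters were given no name, because their leading genes were of other cell types or too few.

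Sub-cluster 2, of 137 cells, was led by the microglial genes C1qa, C1qc and Ctss, with the capillary gene Car4 among its first 10 genes, and its microglial list was at 3009 CPM against 892 to 1074 CPM in the others. It held 6 of the 7 endothelial cells that a doublet caller marked. Sub-cluster 3, of 121 cells, had the fewest UMIs (median 740) and was led by Mt2, with Thbd and Mt1 among its first 10 genes. Sub-cluster 4, of 119 cells with a median of 1445 UMIs, was led by the hemoglobin genes Hba-a1, Hba-a2, Hbb-bt and Hbb-bs, and held Vcam1 and Fmo2 among its first 10 genes. Its venous list was at 1690.2 CPM against 378 to 845 CPM in the others. Sub-cluster 5, of 39 cells with a median of 1607 UMIs, was led by pericyte genes such as Vtn, Higd1b and Rgs5, its pericyte list was at 9137 CPM, and its arterial list at 3548 CPM. Within that list, Gkn3 was at 1434 CPM (1163 to 1749), against 10.5 to 49.7 CPM in sub-clusters 2 to 4. Mgp, which was more abundant in the other listed cells than in the endothelial class, was at 1079 CPM (846 to 1357) in sub-cluster 5.

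Slc2a1 and Cldn5 held similar levels in the first 4 sub-clusters and were lowest in the fifth. Slc2a1 was between 1578 and 1873 CPM in sub-clusters 1 to 4 and at 1094 CPM (859 to 1373) in sub-cluster 5. Cldn5 lay between 1364 and 1832 CPM and was at 1020.1 CPM in sub-cluster 5. Abcg2 was lower in the arterial-like sub-cluster, at 985 CPM (841 to 1147) against 1481 to 1720.3 CPM in sub-clusters 2 to 4. It stood at 739 CPM (549 to 975) in sub-cluster 5. Sub-clusters 1 and 5 were stable in the sense that 79.6% to 94.9% and 94.9% to 100% of their cells stayed together when resolution, gene number or components were changed, whereas sub-clusters 2 and 3 were merged or divided and 49.6% to 62.2% of sub-cluster 4 stayed together. When cells with at least 3 mural UMIs were left out before clustering, only 1 cell of sub-cluster 5 remained, and 81.4% of the remaining cells of sub-cluster 1 stayed together.

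**Figure D4:**
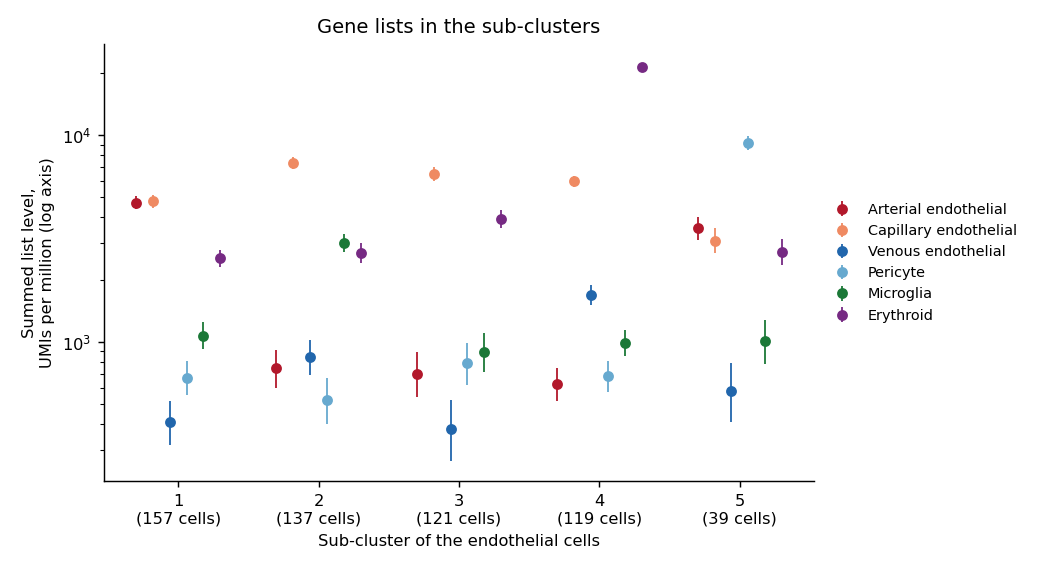
Summed levels in CPM (log axis) of 6 marker lists in the 5 sub-clusters of endothelial cells, with 95% Poisson intervals as bars. The arterial list is highest in sub-cluster 1 (4713 CPM), the microglial list in sub-cluster 2 (3009 CPM), the erythroid list in sub-cluster 4 (21448 CPM) and the pericyte list in sub-cluster 5 (9137 CPM).

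RNA of other classes was present in the endothelial cells at levels that bear on these groups. All 9 genes of the pericyte list were detected, at 1547 CPM in sum against 16123 CPM in pericytes, and 6 of 7 smooth muscle genes at 578 CPM against 25334 CPM in VSMCA. Cells with at least 3 UMIs of these mural lists numbered 93 (16.2%) and were deeper, with a median of 1441 against 841.5 UMIs. Without them the pericyte list was at 236 CPM and the smooth muscle list at 205 CPM, whereas the arterial list was at 2005 CPM and the nutrient carriers at 7899 CPM. The microglial list was at 1375 CPM against 49409 CPM in microglia, at 1830 CPM in astrocytes, 1021 CPM in pericytes and 798 CPM in VSMCA, so the endothelial level lay within the range of the other large classes named here that are not microglia.

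The lists of neural, matrix and macrophage cells were lower. The astrocyte list was at 228 CPM against 14255 CPM in astrocytes, ependymal genes at 98.7 CPM, neuron genes at 72.5 CPM, macrophage genes at 66.3 CPM, fibroblast genes at 37.0 CPM and oligodendrocyte genes at 18.5 CPM. Hemoglobin and other erythroid genes were at 8521 CPM, against 690447 CPM in HbVC and 23576 CPM in the other listed cells. They were at 5995 CPM in astrocytes, 3705 CPM in pericytes, 2789 CPM in microglia and 2516 CPM in VSMCA. The endothelial sum rested on few cells, since hemoglobin took a median of 0.246% of the UMIs of an endothelial cell. It took 5% or more in only 7 cells, and 31.4% in the highest. The part of such RNA in the gene groups above was not tested.

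The same marker rule, at least 3 of the 4 markers, was applied to all 9 libraries so that the brainstem NS cells could be set beside the rest. It found 876 cells in the brainstem NS library, of which 375 carried no class in the list. The others were 479 endothelial cells and 22 cells of other listed classes, 9 of them HbVC. In the other 8 libraries, whose labels could not be tied to a region or sleep state here, it found between 30 and 738 cells. Their values are therefore given as a range and a median, with no comparison of sleep states. In the unlisted cells of the brainstem NS library, efflux pumps were at 2306 CPM and Wnt genes at 2591 CPM, against 2444 and 2691 CPM in the listed class. They differed more in other respects, with the erythroid list at 22932 CPM against 8521 CPM and Mt1 at 1731 CPM against 1246 CPM.

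Of the carrier and pump groups in the brainstem NS cells, efflux pumps lay above all 8 other libraries. Nutrient carriers lay within the range of these libraries, at 7132 CPM against 2884 to 7501 CPM. Organic anion carriers did so too, at 3929 CPM against 1565 to 4471.5 CPM, but this sum included Slco1a4 at 2981 CPM. Slco1a4 was among the 4 markers that chose the cells, so the level of this group was partly set by that choice. Efflux pumps were at 2339 CPM (2250.2 to 2431) against 1229.8 to 2266 CPM (median 1813), where 3 of the other libraries had intervals that overlapped. Genes of caveolae and transcytosis were at 4022 CPM (3905 to 4142) against 1990.0 to 3677 CPM, above all 8 as were Wnt genes at 2609 CPM (2515 to 2706) against 1207 to 2361 CPM, where the intervals of 3 libraries overlapped. The cell cycle list, of very few UMIs, was also above all 8, at 77.2 CPM against 23.3 to 71.9 CPM. When only 2 of the 4 markers were required, it was above 6 of the 8, and organic anion carriers were then above all 8. Among single genes, Bsg was at 9615 CPM against 3488 to 8497 CPM, Itm2a at 6188 CPM against 2482 to 4937 CPM and Abcg2 at 1293 CPM (1227 to 1361) against 514 to 1153 CPM, the highest of which reached 1235 CPM in its interval. Junctions (4615 CPM against 2817 to 6394), Slc2a1 (1495 CPM against 514 to 2486) and Gkn3 (669.6 CPM against 280 to 1030.3) lay within the range. The junction sum included the marker Cldn5 at 1500 CPM, so it too was partly set by the choice of cells.

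Klf4, Mt1 and Mt2 lay below all 8, Klf4 at 206 CPM against 216 to 402 CPM, Mt1 at 1459 CPM against 1486 to 3218 CPM and Mt2 at 343 CPM against 359 to 1034 CPM. All 3 had intervals that overlapped that of the lowest other library, and in the unlisted cells of the brainstem NS library Mt1 and Mt2, at 1731 and 399 CPM, were not below it. The depth of the marked cells differed as well, with medians of 476 to 1050.0 UMIs in the other libraries and 1023 in this one, and in 3 of the other libraries hormone transcripts took 1.13% to 8.65% of the UMIs of the marked cells. Region, sleep state, depth and the library itself cannot be told apart in these ranges.

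**Figure D5:**
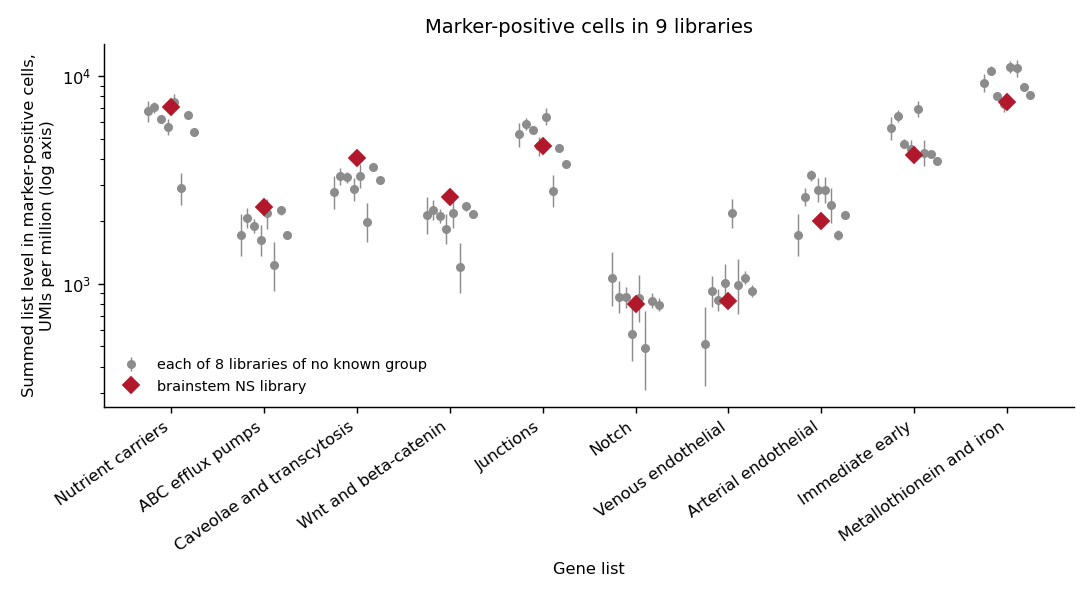
Summed levels in CPM (log axis) of 10 gene groups in marker-positive cells, with the brainstem NS library as a diamond, each of the 8 other libraries as a grey point and 95% Poisson intervals as bars. The diamonds of efflux pumps, caveolae and Wnt genes (2339, 4022 and 2609 CPM) lie above all the grey points, and those of junction and Notch genes lie among them.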

How the data were processed

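Per the labels and the study's methods, the authors made single-cell libraries with the 10x Genomics v2 chemistry, counted UMIs with Cell Ranger 2.2.0 on GRCm38 and deposited a table of filtered UMI counts for 18634 genes and 29571 cells; the annotation release is not given in the sources used here. The counts were used as deposited. Cells were matched by barcode to the study's cell list, and 22 endothelial barcodes also occurred in another library. The members and the gene lists were chosen with earlier results of these data known.

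UMIs were summed per class and scaled to CPM, with exact 95% Poisson limits on the sums and Clopper-Pearson limits on shares of cells; without replicates no test between classes or conditions was made. PCR copies share a UMI, so the intervals cover counting error only. A gene was compared when its mean was at least 50 CPM over both classes and was called higher or lower at a 2-fold ratio with a pseudocount of 10 CPM. Shares of cells used cells thinned to 500 UMIs where the text names thinning, and all UMIs of each cell elsewhere. Sub-clusters came from 2000 variable genes, 13 principal components, 20 neighbours and Leiden resolution 1. Scrublet marked 44 cells of the library (1.18%), 7 of them endothelial, and none was removed.

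The text names members of the gene lists, the 25 genes with the highest ratio over the next class among genes of at least 100 CPM, the 10 most abundant genes and the 10 leading genes of each sub-cluster; some of these genes are not reported here. Promoter sequences came from RefSeq and the word overlap of transcript ends from GENCODE transcripts; 6 of the 25 leading genes had no entry. Alternatives were other pseudocounts, level minimums, totals, thinning depths, cell filters and clustering settings. The work used scanpy 1.11.5, leidenalg 0.10.2, scipy 1.17.1, pandas 2.3.3 and numpy 2.4.6 in Python 3.11.15, and the scripts were tested on simulated data.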

Additional observations from a re-analysis of the deposited data

How the results depend on the processing

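The numbers of genes called depended on the minimum level. With at least 20 CPM, 851 genes were higher and 788 lower than in the other listed cells, 952 and 836 than in pericytes, and 1236 and 539 than in VSMCA. With no minimum the numbers were 1000 and 1666, 1613 and 1470, and 1910 and 867, and the share of higher genes among those called against the other listed cells went from 60.8% to 37.5%. A pseudocount of 1 CPM, cells of at least 1000 UMIs, totals without mitochondrial and hemoglobin genes, means over cells, and leaving out cells with mural UMIs or called doublets kept every number within 1.5 times, and none of these scalings moved the median log2 ratio by more than 0.1. Shares of cells depended on depth. An arterial marker was seen in 58.1% of endothelial cells without thinning, 61.7% at 1000 UMIs, 14.9% when 2 UMIs were required and 18.4% with the list without Mgp, Clu, Gja4 and Sox17, which was added after seeing the data. A venous marker was seen in 39.4%, 41.2% and 7.02% under the first 3 settings, and a capillary marker in 95.5%, 91.4% and 73.2%. The shares at 1000 UMIs cover only the 243 endothelial cells of at least that depth. Clustering gave 4 to 7 sub-clusters. Averaging over cells in place of UMIs brought the erythroid list from 8521 to 4925 CPM and Vcam1 from 146 to 82.8 CPM (CPM of Vcam1, CPM of the Erythroid list). Leaving out cells with mural UMIs brought the fibroblast list to 12.3 CPM and the ependymal list to 65.8 CPM. No paired analysis was possible because each group has 1 library. Depth limits genes under 4.63 CPM, and 1 pooled library gives no spread between animals.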

Other observations

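Malat1, a nuclear noncoding RNA, was the most abundant transcript of the endothelial cells, at 78314 CPM against 109015 CPM in the other listed cells. The 7 cells in which hemoglobin took at least 5% of the UMIs held UMIs of all 4 endothelial markers in sum. With mitochondrial and hemoglobin UMIs left out of the totals, they had Flt1 at 2726 CPM (1899 to 3792) against 1575 CPM in the other cells, Cldn5 at 1792 CPM (1136 to 2688) against 1734 CPM, Ly6c1 at 4752 CPM (3635 to 6104) against 4952 CPM and Slco1a4 at 3038 CPM (2160.4 to 4153) against 3246 CPM. Alas2, an enzyme of heme synthesis in red cell precursors, had 3 UMIs in these 7 cells and 2 UMIs in the other 566.

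Marker lists of different stretches of the vessel tree overlapped within cells thinned to 500 UMIs. Of 570 cells, 231 (40.5%) held capillary markers alone, 148 arterial and capillary, 87 capillary and venous, and 38 markers of all 3 lists. Arterial markers alone were found in 33 cells and venous markers alone in 4, while 20 cells held none.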
